A study of Salvelinus alpinus with 144 samples.

Results

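LOC111955992 is a gene of Arctic charr (Salvelinus alpinus) that the study's gene list names as the large subunit of the splicing factor U2AF (U2AF65). It was followed here as 1 of the 42433 genes in the mRNA count table, and 1 of the 40311 genes with at least 10 reads over all libraries. The gene was picked because the study had set its level in hybrids apart from that of at least 1 of 2 parental lake morphs. Its differences between cross-types are therefore described below and not tested. The mRNA of 72 whole embryos had been sequenced. The embryos were offspring of wild-caught parents of the small benthic morph (SB) and the planktivorous, limnetic morph (PL) of Lake Thingvallavatn, reared in a common hatching tray. There were 4 cross-types, written with the mother's morph ahead of the father's. SB×SB and PL×PL were the pure crosses, and SB×PL and its reciprocal PL×SB were the hybrids. Each cross-type consisted of 3 families, sampled at 150 and again at 200 τs with 3 siblings on each occasion (tau-somite units, embryonic age in the time needed to form 1 pair of somites). The head skeleton starts to form at the earlier time point, and at the later one most cartilages of the head are in place. Embryos received no treatment and differed by parentage, age and the letter (A, B or C) that the labels give as a sequencing batch. By the study's methods, such batches were made for the small RNA of these embryos and all mRNA libraries were sequenced together, so that the letter need not mark a batch of the mRNA.

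U2AF is a heterodimer that helps the spliceosome find the end of an intron. Its large subunit binds the run of pyrimidines ahead of the 3′ splice site, its small subunit contacts the AG dinucleotide at the intron's end, and together they help to recruit the U2 snRNP to the branch point. In vertebrates the large subunit is a general splicing factor, used in every tissue. Salmonid genomes carry many gene copies from an ancestral genome duplication. Near-identical copies can share reads, and which copies of U2AF65 this annotation holds, and whether they share reads with LOC111955992, was not examined here. No gene in the count table carries a U2AF symbol. Most genes there carry LOC identifiers without names, as LOC111955992 does, so this does not show that other U2AF genes are absent.

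Levels are given as TMM-normalized CPM, read counts scaled to a common library total after edgeR's trimmed mean of M-values (TMM) had adjusted the totals. The 72 libraries held between 11969598 and 17133123 counted reads, with a median of 15922750. LOC111955992 received 2921 reads in all, was detected in every embryo, and had a mean of 2.68 CPM and a median of 0.686 CPM. Its mean was above that of 39.5% of the genes tested. Embryos were sequenced whole, so that fewer cells using a gene and less RNA of it per cell cannot be told apart. The tissue markers fixed for this work that could be matched by symbol were present. The muscle gene myog ranged from 36.5 to 135 CPM, the neuronal gene snap25 from 1.93 to 14.2 CPM and the cartilage gene matn1 from 0.249 to 248 CPM.

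The levels of LOC111955992 fell into a low and a high set with nothing in between. No embryo had a level between 0.837 and 3.22 CPM, a 3.85-fold step, with 41 embryos below it and 31 above it. In raw reads, the 41 embryos had 1 to 12 reads of the gene and the 31 embryos had 50 to 180 reads. The same embryos stood on either side of the step in raw counts and in CPM computed with edgeR's relative log expression (RLE) factors (step of 3.87-fold). TMM factors ran from 0.878 to 1.08 and library totals differed little beside the step, so these checks could hardly have come out otherwise. The counting intervals of the embryos on either edge did not overlap. The highest embryo below it had 11 reads, with an exact 95% Poisson interval of 0.418 to 1.5 CPM, and the lowest embryo above it had 52 reads, with an interval of 2.41 to 4.23 CPM. These intervals cover counting error only, since reads amplified by PCR are not independent molecules.

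The step was rare among genes of this data set. For each of the 29448 genes with a mean of at least 1 CPM, the largest gap between neighbouring embryos was taken, with at least 10 embryos on each side and on the scale of log2(CPM + 0.1). The gap of LOC111955992 was 1.83 on this scale. The median gap over the genes was 0.06, the 99th percentile was 0.57, and 36 genes (0.122%), LOC111955992 included, had a gap at least as large. Of these 36 genes, 10 were split exactly by age, as the cartilage gene matn1 was, and 26, LOC111955992 among them, were not. The gap was noticed in these data, so this share describes how the gene ranks and is not a test. The gene was chosen for its differences between cross-types, so a large gap follows in part from that choice. It passed the mean of 1 CPM mainly through the hybrids. Their group means were 4.52 to 4.81 CPM, against 0.273 to 1.55 CPM for the pure crosses.

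**Figure D1:**
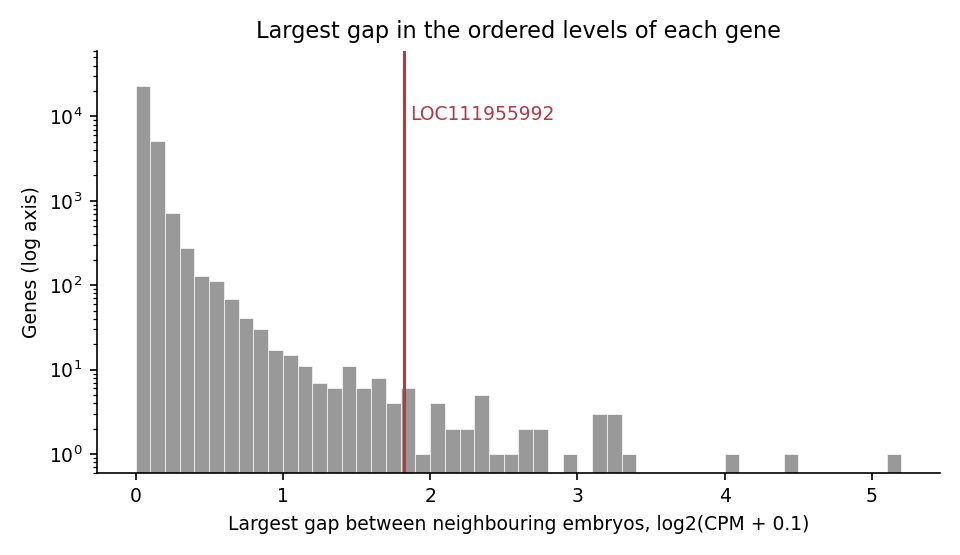
Histogram of the largest gap between neighbouring embryos, on the log2(CPM + 0.1) scale (x axis), for 29448 genes (y axis, number of genes on a log axis). The red line marks LOC111955992 at 1.83, where 36 genes lie as far right or further.

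High embryos were mostly hybrids. At 150 τs, 0 of 9 SB×SB embryos and 1 of 9 PL×PL embryos were above the step, against 7 of 9 for SB×PL and 8 of 9 for PL×SB. At 200 τs, 0 of 9 SB×SB, 2 of 9 PL×PL, 5 of 9 SB×PL and 8 of 9 PL×SB embryos were. Thus 28 of the 31 high embryos were hybrids, of either direction, and the other 3 were PL×PL siblings of 1 family.

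In the benthic pure cross SB×SB, every embryo was low. The level had a minimum of 0.12, a median of 0.253 and a maximum of 0.419 CPM at 150 τs, from 2 to 7 reads per embryo. At 200 τs these values were 0.118, 0.379 and 0.770 CPM, from 2 to 12 reads. The families H1502 and H1504 overlapped at both ages. Family H1503 lay below both at 150 τs, with siblings at 0.12, 0.186 and 0.201 CPM. At 200 τs it overlapped with them and had the highest embryo, among siblings with 0.477, 0.770 and 0.247 CPM. With 12 reads or fewer per embryo, the counting error of each of these levels is large.

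In the limnetic pure cross PL×PL, the median was 0.304 CPM at 150 τs (range 0.182 to 4.27) and 0.613 CPM at 200 τs (range 0.233 to 5.88). A single family set the upper end. The siblings of H1513 had 0.243, 0.190 and 4.27 CPM at 150 τs and 4.42, 0.613 and 5.88 CPM at 200 τs, so that high and low embryos occurred side by side in it at both ages. Families H1509 and H1516 stayed low. Their 12 embryos reached at most 0.738 and 0.674 CPM, levels that overlap with those of SB×SB.

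In the hybrid with a benthic mother, SB×PL, the median was 3.81 CPM at 150 τs (range 0.247 to 11.4) and 5.25 CPM at 200 τs (range 0.559 to 9.37). Family H1505 was high throughout. Its siblings had 3.28, 11.4 and 10.5 CPM at 150 τs and 7.60, 7.06 and 8.67 CPM at 200 τs, and include the highest embryo of all. The siblings of H1506 had 4.72, 3.81 and 5.52 CPM at 150 τs and 0.559, 9.37 and 0.730 CPM at 200 τs. Those of H1507 had 3.58, 0.299 and 0.247 CPM at 150 τs and 5.25, 0.699 and 0.837 CPM at 200 τs. Both of these families mixed high and low embryos, H1507 at each age and H1506 only among its siblings at 200 τs.

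In the hybrid with a limnetic mother, PL×SB, the median was 4.51 CPM at 150 τs (range 0.188 to 8.66) and 5.08 CPM at 200 τs (range 0.0646 to 6.28). All embryos of H1514 and H1520 were high. In H1514 the siblings lay close together, with 4.22, 4.56 and 3.86 CPM at 150 τs and 3.60, 5.08 and 4.83 CPM at 200 τs. In H1520 they had 8.66, 4.51 and 3.22 CPM at 150 τs and 4.26, 6.28 and 6.0 CPM at 200 τs. Family H1512 held the exceptions. It had 0.188, 5.05 and 6.42 CPM at 150 τs and 0.0646, 5.87 and 5.44 CPM at 200 τs, the low embryo at 200 τs having a single read, the fewest of all 72 embryos.

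**Figure D2:**
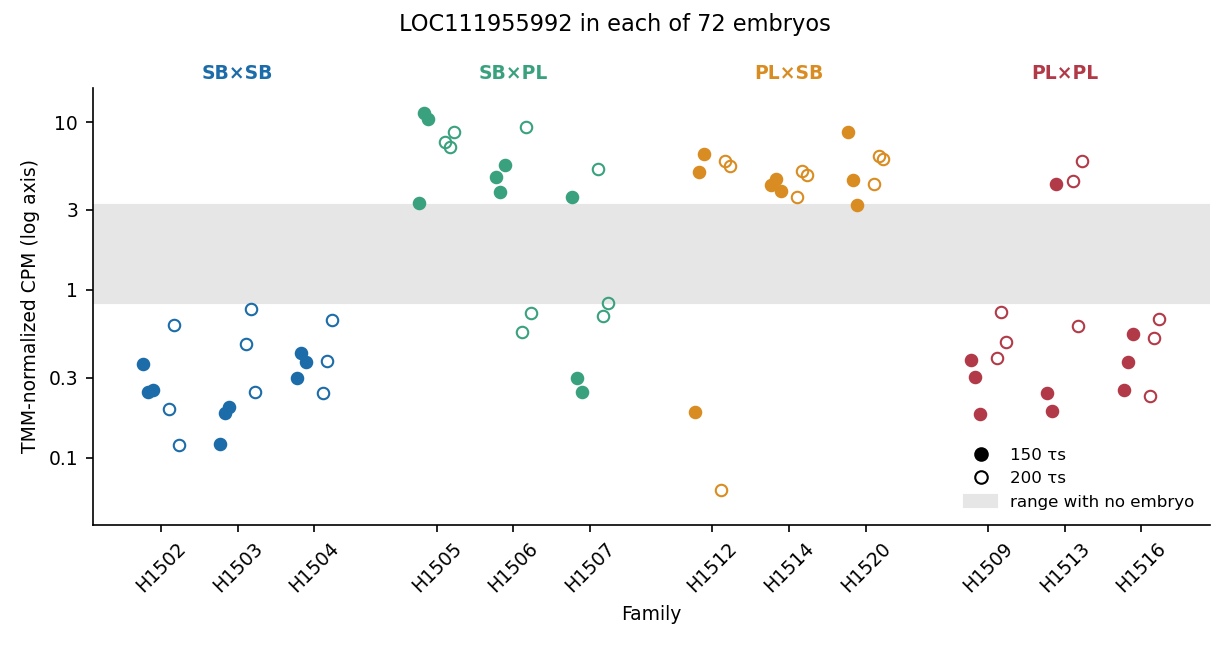
TMM-normalized CPM of LOC111955992 (y axis, log scale) in each of the 72 embryos, grouped by family (x axis) and coloured by cross-type, with filled circles for 150 τs and open circles for 200 τs. The grey band from 0.837 to 3.22 CPM holds no embryo. All 18 SB×SB embryos lie below it and 28 of the 36 hybrids above it.

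Ordered by median, the cross-types ran PL×SB, SB×PL, PL×PL and SB×SB at 150 τs, and SB×PL, PL×SB, PL×PL and SB×SB at 200 τs. The ranges of the reciprocal hybrids overlapped at both ages, and so did those of the pure crosses. Each hybrid's range also overlapped with that of each pure cross at both ages. Group means at 150 τs were 0.273 ± 0.0981 CPM (SD, n = 9 embryos) for SB×SB and 0.750 ± 1.33 CPM for PL×PL, and 4.81 ± 3.9 CPM for SB×PL and 4.52 ± 2.29 CPM for PL×SB. At 200 τs they were 0.412 ± 0.231 and 1.55 ± 2.08 CPM for these pure crosses, and 4.53 ± 3.80 and 4.60 ± 1.91 CPM for these hybrids. In every group but SB×SB the SD reflects embryos on both sides of the step, and the mean of PL×PL at 200 τs lies within the step, where there is no embryo.

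Fitted differences from edgeR's model of 1 mean per group put these levels on the log2 scale. At 150 τs, the hybrids exceeded SB×SB by 4.09 (SE 0.69) in SB×PL and by 4.0 (SE 0.69) in PL×SB. They exceeded PL×PL by 2.65 (SE 0.60) and 2.56 (SE 0.60). At 200 τs, the differences from SB×SB were 3.45 (SE 0.65) in SB×PL and 3.45 (SE 0.66) in PL×SB, and those from PL×PL were 1.60 (SE 0.56) for either hybrid. The pure crosses differed by -1.45 (SE 0.82) at 150 τs and -1.85 (SE 0.71) at 200 τs, SB×SB minus PL×PL. The comparisons share their pure crosses, and siblings enter the model as replicates, so that the standard errors leave out resemblance within families. Since the gene was chosen for this pattern, no p-value is given.

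The difference between the pure crosses rested on family H1513. Without it, SB×SB minus PL×PL was -0.30 at both 150 τs (SE 0.89) and 200 τs (SE 0.79). The hybrids then exceeded PL×PL by more, for example by 3.7 (SE 0.68) at 150 τs and 3.15 (SE 0.64) at 200 τs in PL×SB. The differences of the hybrids from SB×SB lay between 2.82 and 4.54 whichever of the 12 families was left out. Each letter held more high embryos in either hybrid than in either pure cross. Of the 6 embryos that a cross-type had under a letter, 0 were high in SB×SB and 0 to 2 in PL×PL, against 3 to 5 for SB×PL and 4 to 6 for PL×SB. The margin was narrowest under C, with 3 SB×PL and 2 PL×PL embryos. The low embryos of H1512 and the high ones of H1507 all carried A. In H1506 at 200 τs the high embryo carried B, and in H1513 high embryos carried A or C. The part of the letter within families was not tested. Of the 3 markers, myog was called at 200 τs, with a log2 difference of -0.51 (SE 0.14, edgeR adjusted p = 0.015) for SB×SB minus PL×PL and of 0.45 (SE 0.14, adjusted p = 0.079) for PL×SB minus SB×SB. With counts summed over siblings the adjusted p of the latter was 0.293. Of all genes tested, 17.6% were called between the pure crosses at 200 τs and 4.3% for PL×SB minus SB×SB. The part of myog in the values of LOC111955992 was not tested.

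**Figure D3:**
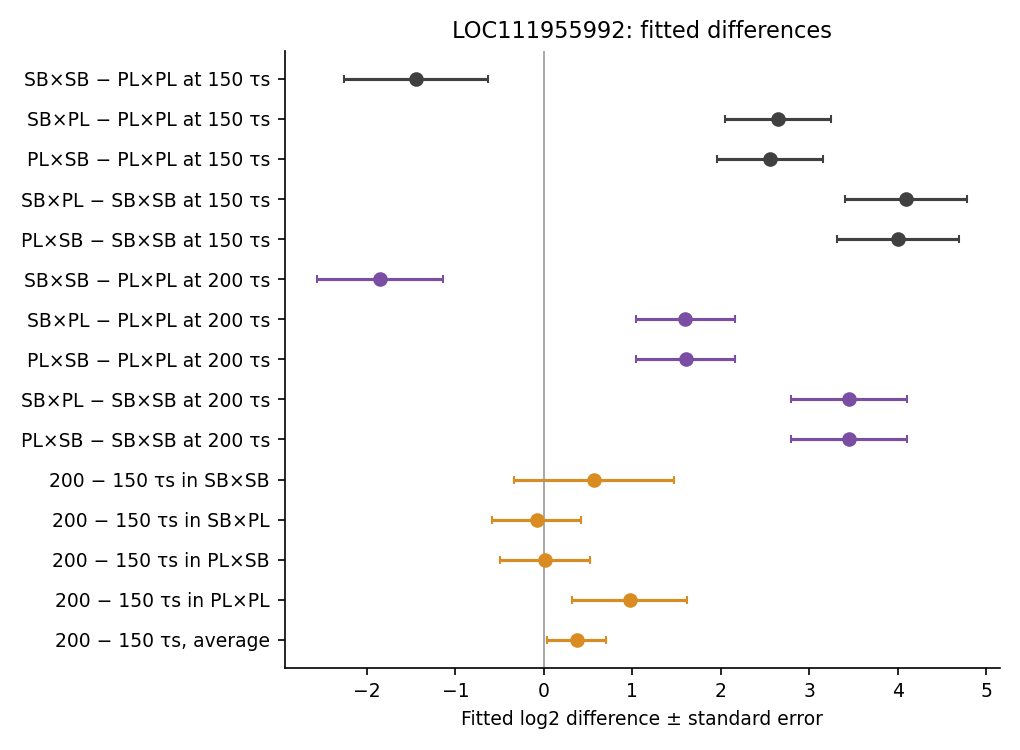
Fitted log2 differences of LOC111955992 with standard errors (x axis) for 5 comparisons of cross-types at 150 τs (dark grey), the same 5 at 200 τs (purple), and the change from 150 to 200 τs in each cross-type and on average (orange). Every difference of a hybrid minus a pure cross is positive at each age, and that of SB×SB minus PL×PL is negative. The average change with age is 0.37.

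With age, the mean level of LOC111955992 over the cross-types was not detectably different. Averaged over the 4 cross-types, 200 minus 150 τs was 0.37 on the log2 scale (SE 0.33) with an adjusted p of 0.330 in edgeR's quasi-likelihood test. Of the 40311 genes, 27921 (69.3%) passed an adjusted p of 0.1. Described within cross-types, the fitted changes were 0.57 (SE 0.90) for SB×SB and 0.97 (SE 0.65) for PL×PL, and -0.08 (SE 0.50) for SB×PL and 0.02 (SE 0.51) for PL×SB. The siblings taken at 150 and 200 τs are different embryos, so the change was also taken per family, as the difference of mean log2(CPM + 1). It was positive in 10 of the 12 families, with a mean of 0.12 (SD 0.43, range -0.89 in H1506 to 0.98 in H1513). An exact two-sided sign-flip permutation test over the 12 families gave p = 0.373, where the smallest p the test allows is 0.000488. Both tests span the step. The median of the low embryos was 0.253 CPM at 150 τs and 0.520 CPM at 200 τs. That of the high embryos was 4.54 and 5.87 CPM. These shifts were not tested, and cross-types were not held equal in them. The 1 CPM added for the family differences exceeds every low level, so it shrinks changes among low embryos.

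In 12 of the 12 families, high embryos were found either at both ages or at neither. By family, 5 were low in all 6 embryos, 3 were high in all 6 and 4 were mixed. Among the 24 sets of 3 siblings, 10 were low, 7 were high and 7 were mixed. The family means over the 6 embryos ran from 0.298 CPM in H1502 to 8.08 CPM in H1505. The mixed families lay between, with 1.82 CPM in H1507, 2.60 in H1513, 3.84 in H1512 and 4.12 in H1506.

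**Figure D4:**
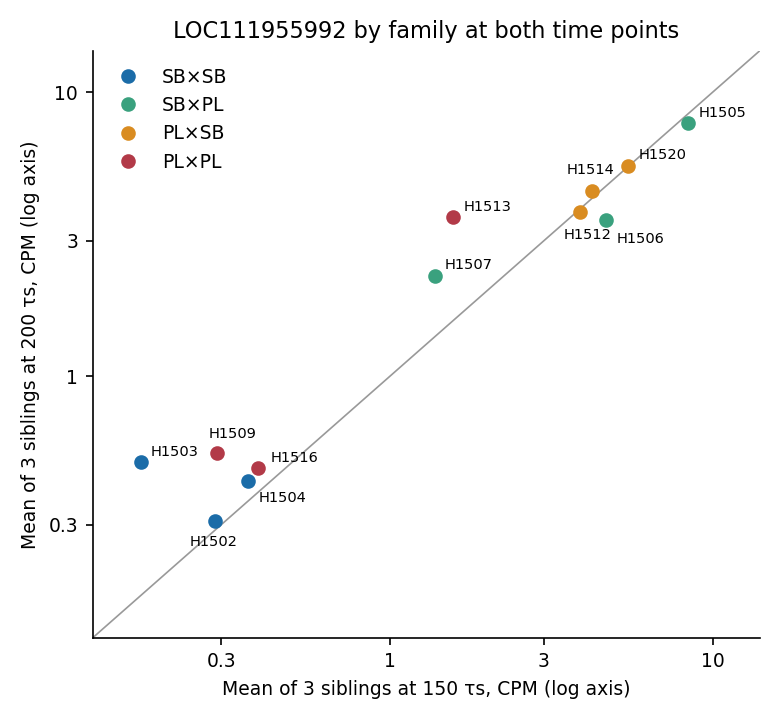
Mean of the 3 siblings at 150 τs (x axis) and at 200 τs (y axis), both in CPM on log axes, for the 12 families, coloured by cross-type, with a line of equal levels. The 5 families with low embryos only sit at the lower left, and the 7 with high embryos at the upper right.

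Differences among families of the same cross-type and age were tested for all genes with 16 family terms in edgeR. For LOC111955992, the quasi-likelihood F was 2.15 and the adjusted p from edgeR was 0.137, which missed the threshold of 0.1. Of all genes, 4220 (10.5%) passed it. The result depended on single families. The adjusted p was 0.038 without H1512, 0.060 without H1506 and between 0.121 and 0.406 without any other. As a description, the sum of squares of log2(CPM + 1) over the 72 embryos was split. The 8 groups held 51.6% of it, families within groups 20.1% and siblings within families 28.3%. The medians over genes with a mean of at least 1 CPM were 31.7%, 19.8% and 44.8%. The gene was chosen for its differences between cross-types, so its larger share for groups follows in part from that choice. Groups differ by both cross-type and age, and the split does not separate these.

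Expression variability was measured by the coefficient of variation (CV) of the gene over 9 embryos and by its rank, from 0 to 100, among the 500 genes nearest in mean expression. The CV at 150 τs was 35.9% for SB×SB and 177% for PL×PL, and 81.1% for SB×PL and 50.7% for PL×SB. At 200 τs it was 56.1% and 134% for these pure crosses, and 83.8% and 41.4% for these hybrids. Standard errors of the CV, from leaving out each embryo in turn, ran from 7.91% in SB×SB to 120% in PL×PL, both at 150 τs. The ranks were 8.6 and 79.0 in SB×SB, and between 94.0 and 99.8 in the 6 groups that held embryos on both sides of the step. With CVs taken from deviations within families, the ranks of these 6 groups ran from 97.6 to 99.8. In 3 groups, 1 embryo was the only one on its side of the step. Without it (an alternative added once the values were known), the CV of PL×PL at 150 τs was 39.7% (rank 26.2), that of PL×SB at 200 τs 17.7% (rank 29.8) and that of PL×SB at 150 τs 34.1% (rank 89.8). The CV in SB×SB rests on mean normalized counts of 4.20 and 6.34 per embryo, where counting error is large.

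The 5 other factors of the 3′ splice site that could be matched were lower at the later age. A list was drawn up of proteins that act with U2AF or with the U2 snRNP it recruits. Most could not be matched, and 5 genes were identified by symbol. They were sf3a1, a subunit of the SF3A complex, sf3b3 and sf3b5, subunits of the SF3B complex that holds the branch point, snrpa1, a protein of the U2 snRNP, and htatsf1, a protein that associates with the U2 snRNP. All 5 fell with age, beside the 34.3% of all genes tested that fell. The list's median change was -0.53 against 0.00 over all genes tested. Mean levels went from 307 ± 41.4 CPM (SD, n = 36) at 150 τs to 213 ± 36.2 CPM at 200 τs in sf3b3, a fitted log2 change of -0.53 (SE 0.05, edgeR adjusted p = 3.0e-15). They went from 127 ± 16 to 84.8 ± 13.1 CPM in snrpa1, a change of -0.59 (SE 0.05, adjusted p = 5.5e-19). Siblings enter these fits as replicates. With counts summed over siblings, the edgeR adjusted p was 7.7e-09 for sf3b3 and 8.0e-09 for snrpa1. The changes were -0.53 in htatsf1, -0.46 in sf3a1 and -0.35 in sf3b5, all called.

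Between cross-types, calls in the list are set beside the shares over all genes, and 5 genes are too few to be told apart from those shares. In the 5 comparisons at 150 τs, edgeR called 0 of the 5 genes, DESeq2 called 0 and 0 of the 25 tests had an unadjusted p under 0.05, as 3.85% to 6.94% of all genes had. Of all genes tested, 0.0372% were called between the pure crosses, 0.124% and 0.0223% when SB×PL and PL×SB were set against PL×PL, and 0.159% and 0.0447% when they were set against SB×SB. At 200 τs, 1 of the 5 was called between the pure crosses, where 17.6% of all genes were. In the comparisons of hybrids with pure crosses at that age, edgeR and DESeq2 called 0 of the 5 genes. Of all genes, edgeR called 0.154% (SB×PL) and 0.38% (PL×SB) against PL×PL, and 0.0794% and 4.3% against SB×SB. At an unadjusted p under 0.05, the list had 6 of its 20 tests, and all genes had from 9.29% to 15.5% of theirs in the same 4 comparisons. With the pure crosses compared as well, the list had 9 of 25 tests, and 26.4% of all genes passed between the pure crosses. These tests share genes and crosses and are not independent. The gene called between the pure crosses was snrpa1, with 95.1 ± 11.7 CPM (SD, n = 9) in SB×SB and 78.2 ± 9.95 CPM in PL×PL, a log2 difference of 0.28 (SE 0.09, edgeR adjusted p = 0.031). With counts summed over siblings, its adjusted p was 0.127. The gene zrsr2, which encodes a relative of the small U2AF subunit that acts in the minor spliceosome, was added after the files had been seen, and its values are a description. Its mean went from 24.8 ± 3.55 CPM (SD, n = 36) at 150 τs to 21.2 ± 4.95 CPM at 200 τs. The fitted log2 change was -0.38 (SE 0.11) for SB×SB and -0.33 (SE 0.11) for SB×PL, against -0.16 (SE 0.11) for PL×SB and -0.06 (SE 0.11) for PL×PL. At 200 τs its mean was 18.7 ± 2.50 CPM (SD, n = 9) in SB×SB and 23.4 ± 4.56 CPM in PL×PL. With at least 10 embryos on each side, the levels of these genes showed no step like that of LOC111955992. Gaps among the outermost embryos were not taken. Their largest gaps between neighbouring embryos, taken as for LOC111955992, lay between 0.04 in sf3b5 and 0.07 in snrpa1 on the log2(CPM + 0.1) scale.

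The genes most like LOC111955992 were sought among the other 29447 genes with a mean of at least 1 CPM, by Pearson's r of log2(CPM + 1) over the 72 embryos. Embryos share families and cross-types, and the levels of LOC111955992 form separate sets, so r includes the step between the sets, and it is given without p. The highest r belonged to LOC112077891 (r = 0.51, Spearman's rho 0.45), LOC112081014 (r = 0.50), LOC112079503 (r = 0.49), LOC111963943 (r = 0.47) and LOC112073039 (r = 0.46). The files give no name for these genes. The order depended on the measure, and 2 of these 5 genes were among the 5 highest by Spearman's rho and 4 of them with a pseudocount of 0.1. LOC112081014 was above LOC112077891 by both, with a rho of 0.57 and an r of 0.52 at that pseudocount, against 0.45 for LOC112077891 by either. Within the 31 high embryos and within the 41 low embryos, r for LOC112077891 was 0.07 and 0.14. These values were 0.27 and 0.35 for LOC112081014, 0.35 and -0.16 for LOC112079503, and 0.40 and 0.08 for LOC111963943. For LOC112073039 they were -0.50 and -0.04, so the sign over all embryos was not kept within the sets. With group means removed, r for the 5 genes in the order listed was 0.10, 0.39, 0.32, 0.41 and 0.22. LOC112077891 itself ranged from 0 to 4.40 CPM, with a mean of 1.51 CPM. Like LOC111955992, it passed the mean of 1 CPM through its levels in the hybrids. Almost none of it was found in most PL×PL embryos and in some SB×SB embryos. The PL×PL embryos with high LOC111955992, all from H1513, had 0.0601, 0 and 0.0890 CPM of it. In SB×PL, the H1507 embryo with 5.25 CPM of LOC111955992 had 0 CPM of it.

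The lowest r belonged to LOC111957974 (r = -0.65, rho -0.61), LOC111958174 (r = -0.64) and LOC111950569 (r = -0.57), also without names. LOC111957974 ranged from 8.05 to 58.9 CPM, with a median of 35.3 CPM. Its r was -0.14 within the high and -0.21 within the low embryos of LOC111955992. For LOC111958174 these were 0.03 and -0.23, and for LOC111950569 they were -0.47 and -0.14. After removal of group means, r was -0.38 for LOC111957974, -0.36 for LOC111958174 and -0.56 for LOC111950569. With group means removed, the highest r were those of LOC111972685 (0.51), LOC111960218 (0.49), LOC111963072 (0.49), LOC111966736 (0.48) and LOC112070538 (0.47), and 0 of these 5 were among the 5 listed first.

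**Figure D5:**
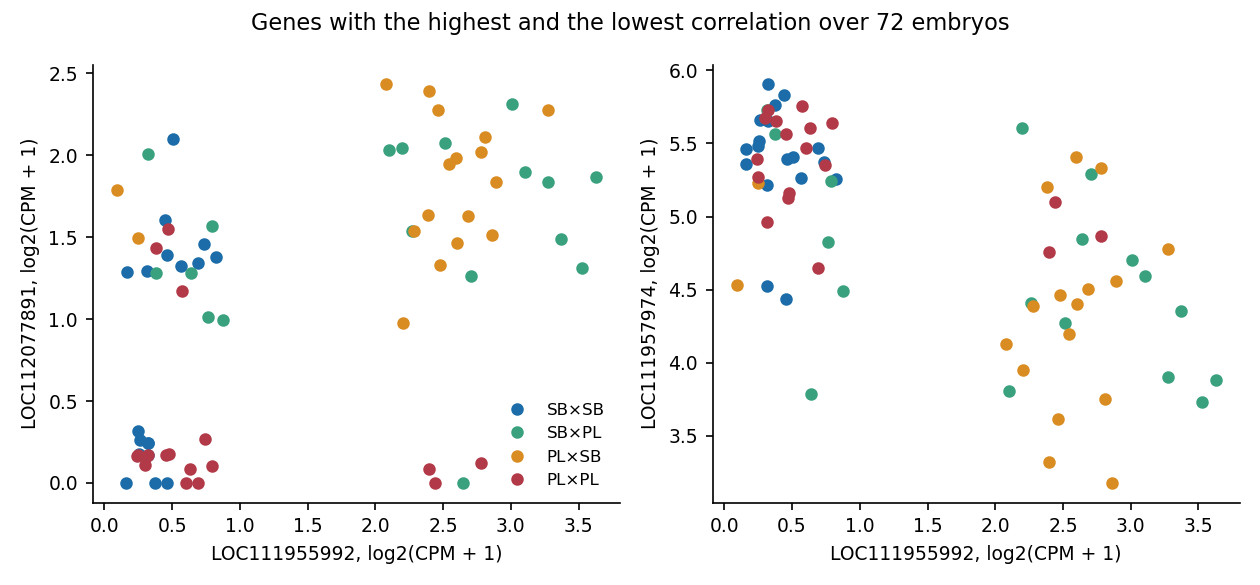
LOC111955992 (x axes) against LOC112077891 (left) and LOC111957974 (right), both in log2(CPM + 1), for 72 embryos coloured by cross-type. The points form separate columns at low and high LOC111955992, with r = 0.51 on the left and r = -0.65 on the right over all embryos.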

How the data were processed

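The authors aligned mRNA reads of 72 embryos to the Salvelinus genome with STAR, counted read pairs per gene with featureCounts (settings -p -B -C) and deposited the raw counts; whether strand was used is not given in the sources used here. Counts were scaled with TMM and fitted with edgeR 4.0.16 (limma 3.58.1) in R 4.3.3, with 1 mean for each of 8 groups, after genes with fewer than 10 reads in all were left out. Quasi-likelihood p-values were adjusted over 40311 genes by Benjamini-Hochberg, with calls at 0.1. DESeq2 1.42.0, other filters and scalings, sums over siblings, family and letter (labelled batch) blocks and the omission of each family were alternatives. Descriptions used Python 3.11.15. The fits were also run on simulated counts of a single dispersion, without separate sets of levels like those of LOC111955992. Of the 288 pairs of libraries within groups, 0 were identical.

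The gene, lists and tests were chosen with earlier results of these data known. Genes named were LOC111955992, called members of the splice-site list, and the 5 highest and 3 lowest r and the 5 highest r of deviations, with the markers myog, snap25 and matn1 and, outside this rule, zrsr2. Labels give the family, whose embryos share parents, so that family pairs the time points. Deviations from group means correlated between time points above 0.1 in 8 of 12 families. Small RNA counts were not used. Position, sequence and neighbouring genes of LOC111955992 were not analysed here, and most list members could not be matched by symbol.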

Additional observations from a re-analysis of the deposited data

Results flagged for a closer look

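In 2 of the 8 groups, 1 embryo lay apart from the other 8 by Dixon's test at the 95% level. In PL×PL at 150 τs, the highest embryo, from family H1513, had 4.27 CPM of LOC111955992, with a gap to the next embryo of 0.91 of the group's range (critical value 0.493). In PL×SB at 200 τs, the lowest embryo, from family H1512, had 0.0646 CPM, with a gap of 0.57 of the range. Chance flags about 1 in 20 groups whose values form 1 continuous set. The levels of this gene form 2 sets, and each of these embryos is the only one of its group on its side of the step, so the result restates the step and is no further evidence. Each of the 2 families had an embryo of the same set at the other time point.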

How the results depend on the processing

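Depth limits the low embryos, whose levels rest on 1 to 12 reads. Under other scalings, filters, DESeq2, a term for the letter of the embryo (labelled batch) and sums over siblings, the log2 differences of LOC111955992 between cross-types moved by less than their standard error. With each family left out in turn, SB×SB minus PL×PL at 150 τs lay between -1.81 and -0.30, SB×PL minus PL×PL between 1.97 and 3.79 and PL×SB minus PL×PL between 2.21 and 3.7. The limits at 200 τs were -2.28 and -0.30, 0.97 and 3.14, and 1.17 and 3.15. The change with age was not called under any alternative (0.27 to 0.43, adjusted p 0.247 to 0.505), and was 0.38 (adjusted p = 0.247) with family as a replicate block and 0.38 (adjusted p = 0.315) with the letter as a block. The adjusted p of the family test was 0.155 with the letter as a block, and from 0.038 to 0.406 over the families left out, where 1818 to 5182 genes were called. With CVs within families, the CV was 20.7% (rank 0.4) in SB×SB and 58.8% in SB×PL at 150 τs, and 102% in PL×PL at 200 τs, where the rank in SB×SB was 87.2. Without the lone embryo on its side of the step (chosen after seeing the data), the CV was 39.7% (rank 26.2) in PL×PL at 150 τs and 17.7% (rank 29.8) in PL×SB at 200 τs, and the rank in PL×SB at 150 τs was 89.8. The cause of the other shifts was not tested. The planned comparison with neighbouring genes was not run. The check of the step on raw counts and with RLE factors was chosen after seeing the data.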
